A study of Mus musculus with 620 samples.

Results

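The genes described here encode nuclear subunits of respiratory complexes III, IV and V. They were taken by name alone: every row of the 3 deposited gene tables whose symbol begins with Uqcr, Cox4i, Cox5, Cox6, Cox7, Cox8 or Atp5, without the pseudogene rows marked -ps. This gave 42 genes of 24850 in the table of the cohort labelled LT and 43 of 40840 in each of the tables labelled ST and YA, where Cox8c was listed as well. Complex III contributed 8 genes, complex IV 17 (18 with Cox8c) and complex V 17. Of these, 41 had enough counts to be tested in at least 1 tissue, while Cox7b2 and Cox8c passed the filter on low counts in none. The prefixes leave out the complex III subunit Cyc1, the complex IV subunit Ndufa4 and the ATPase inhibitor Atpif1, whose values are given beside the members, and no protein-coding gene of mitochondrial DNA was analysed here.

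Poly(A) RNA of 620 mouse tissue libraries from 72 animals was sequenced, with each animal in 1 of 11 conditions. The LT cohort (284 libraries of 12 tissues) held 8 young controls, 9 aged controls and 8 aged mice treated with exenatide, a drug that activates the incretin receptor GLP-1R. The YA cohort (128 libraries of 8 tissues) was of young adult mice and compared 8 controls with 8 exenatide-treated animals. The ST cohort (208 libraries of 7 tissues) held young controls, aged controls, and aged animals under exenatide, the mTOR inhibitor rapamycin, knockdown of GLP-1R in the hypothalamus, or exenatide on top of that knockdown, with 5 libraries per tissue and group except for 4 each in white blood cells of the exenatide and rapamycin groups. LT white blood cells had 5 libraries per group, and young LT colon and skeletal muscle had 6. Strain, sex, ages in months, doses, treatment lengths and what the animals without knockdown received in its place are not known here. Total counts per library ran from 15.2 to 33.8 M in LT, from 15 to 34.1 M in YA and from 14.6 to 56.2 M in ST. In 23 of 27 combinations of tissue and cohort the marker genes of the labelled tissue stood above their level in the other tissues compared. The exceptions were the B cell markers of spleen and the neutrophil markers of white blood cells, both of which are blood-borne cell types. Brain regions shared the neuron markers and were not compared with each other, so the check does not tell them apart. The mean over members had a library far from its group in 12 of 94 groups, 6 of them in YA, by a gap test that does not mark 2 libraries standing apart together, as aged B24 and B27 did in LT colon.

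Complex III passes electrons from ubiquinol to cytochrome c, complex IV passes them on to oxygen, and both move protons across the inner mitochondrial membrane. Complex V, the ATP synthase, lets the protons flow back through a rotating ring of c subunits and uses the rotation to make ATP in its catalytic head. The nuclear subunits surround a few core proteins encoded in mitochondrial DNA, so that a complex needs transcripts from both genomes. Several subunits exist as paralogues, among them the forms of Cox6a, Cox7a and Cox8 typical of heart and skeletal muscle, the lung form Cox4i2, and 3 genes for the same c subunit (Atp5g1, Atp5g2 and Atp5g3).

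Promoters of nuclear respiratory genes are known for sites of the factor NRF1 and of ETS family factors. RefSeq promoters (build GRCm38.p6, which is older than the GRCm39 build of the counts) were matched for 33 of 43 members, and the 250 bases before the start were searched on both strands. The ETS core CCGGAAG occurred in 7 members (21.2%) and in 6.91% of 32851 promoters. The NRF1 core GCATGCGC occurred in 4 members (12.1%) and in 2.26% of all promoters. The half-site of estrogen-related receptors, AAGGTCA, occurred in 2 members (6.06%, against 4.08% of all), and the letters TATAAA in 3 (9.09%, against 12.4%). Shown are the 100 bases before the start of 3 members that recur in the results below: Atp5k and Uqcr11, which each carry a match, and Cox8b, which carries none of the 4 in this stretch. Atp5k lies at chr5:108434400-108434499, Uqcr11 at chr10:80406822-80406921 and Cox8b at chr7:140900447-140900546, all on the minus strand. Capitals mark the NRF1 core in Atp5k, where matches on both strands overlap, and the ETS core in Uqcr11.
Atp5k: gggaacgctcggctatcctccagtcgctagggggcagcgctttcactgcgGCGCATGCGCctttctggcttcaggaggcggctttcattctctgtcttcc
Uqcr11: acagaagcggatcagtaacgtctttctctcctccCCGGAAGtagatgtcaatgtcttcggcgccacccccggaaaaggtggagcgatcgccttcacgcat
Cox8b: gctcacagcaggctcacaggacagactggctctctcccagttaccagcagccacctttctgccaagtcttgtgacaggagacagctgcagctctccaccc
A match describes the letters only, and no binding was measured.

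Across the tissues of young LT controls the members were most abundant in heart and least abundant in white blood cells. Levels are given as log2 CPM (counts relative to the library's scaled total), scaled between libraries by the TMM method, and averaged over the 42 members. This mean was 8.62 ± 0.52 (SD, n = 8) in heart, where the members took 3.69% of all counts, and 7.85 ± 0.30 (SD, n = 6) in skeletal muscle (1.51% of counts). Kidney (6.89 ± 0.07) and liver (6.77 ± 0.38) followed, and the 2 did not differ beyond the spread of the livers. Colon (6.22 ± 0.25) and adipose tissue (5.81 ± 0.25) came next, then frontal cortex (5.48 ± 0.14) and hippocampus (5.46 ± 0.24), which were level with each other. Lung (5.05 ± 0.31) and hypothalamus (5.04 ± 0.15) also could not be separated, and spleen (4.48 ± 0.15) and white blood cells (4.39 ± 0.08, n = 5) stood lowest, with 0.348% and 0.251% of counts. Scaled by library totals instead of TMM, colon stood above liver, and over the 36 members that passed the filter in every tissue, liver stood above kidney. LT tissues came from different sequencing batches: white blood cells from batch 1 only, liver from batch 3 only and heart from batches 2 and 3. Differences between tissues and between batches therefore cannot be fully told apart in these LT levels. In the young ST controls, heart (8.20 ± 0.19) and skeletal muscle (7.25 ± 0.11) were again highest and white blood cells (4.06 ± 0.37) lowest of 7 tissues (SD, n = 5). In YA controls heart (7.89) and skeletal muscle (7.09) were highest, and white blood cells (4.8) and adipose tissue (4.75) lowest. The YA adipose mean includes the outlying library A81. By library totals, colon (6.72) stood above skeletal muscle (6.47) in YA.

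**Figure D1:**
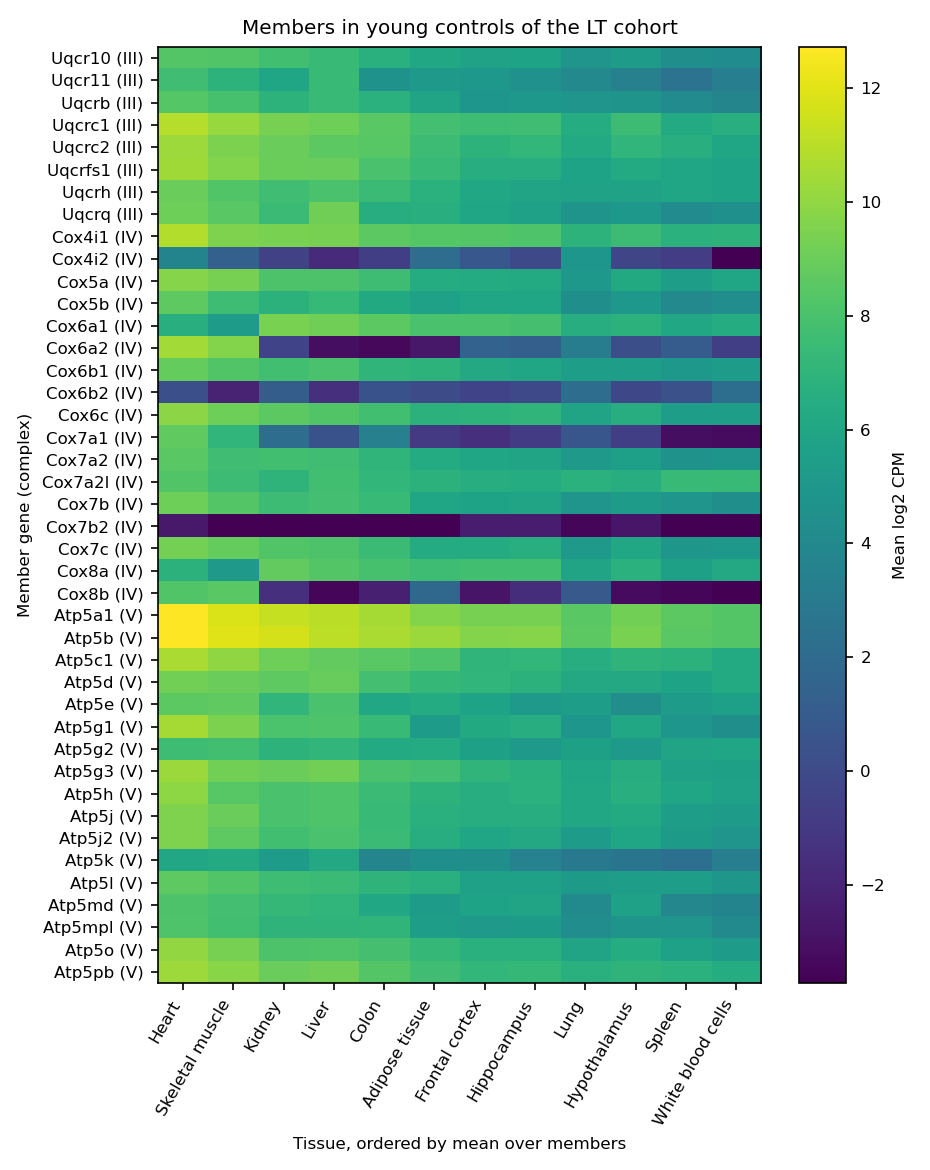
Heat map of the mean log2 CPM of each member (rows, with its complex) in each tissue of young LT controls (columns, ordered by the mean over members). Most members are brightest in heart, while the muscle forms Cox6a2, Cox7a1 and Cox8b are bright in heart and skeletal muscle and dark elsewhere.

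Most members shared this order. For 41 of the 42 genes in that table the difference between the highest and the lowest tissue was at least 1.78 on the log2 scale, the value for Cox7a2l. Among genes found in all tissues Atp5g1 spanned 6.05, from 10.52 in heart to 4.47 in white blood cells. A few genes ran against the order: Cox6a1 and Cox8a were highest in kidney (9.39 and 8.74) and lowest in skeletal muscle (5.35 and 5.18), where their muscle paralogues are found, and Uqcrq was highest in liver (9.17). Cox6b2 was highest in white blood cells (2.19) and lowest in skeletal muscle (-2.11). The widest spans belonged to tissue-restricted forms: 13.8 for Cox6a2, 12.22 for Cox8b, 11.93 for Cox7a1 and 8.64 for Cox4i2.

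The paralogues divided the tissues among themselves. Shares below are of the summed counts of a paralogue set and are compared between tissues only, since counts are not per transcript length. Cox6a2, the heart and muscle form of a regulatory subunit of complex IV, made up 92.9% ± 2.19 (SD, n = 8) of the Cox6a counts in young LT heart and 94.8% ± 2.45 (SD, n = 6) in skeletal muscle, and at most 9.32% (lung) elsewhere. Cox8b made up 71.6% ± 9.87 of the Cox8 counts in heart and 90.5% ± 3.77 in skeletal muscle, and Cox7a1 53.1% ± 6.61 and 39.6% ± 7.09 of its set. Cox4i2, a form known from lung, reached 20.1% ± 4.08 of the Cox4i counts in lung and at most 1.37% (adipose tissue) in the other tissues. Among the c subunit genes, Atp5g1 held 50.8% ± 5.21 in heart and 12.2% ± 3.7 in adipose tissue, while Atp5g2 held 47.1% ± 1.89 in white blood cells and 6.85% ± 0.803 in heart. In hearts of aged controls and of exenatide-treated mice, Cox6a2 stood at 93.9% ± 1.09 and 92.5% ± 1.6, Cox8b at 79.7% ± 3.26 and 75% ± 5.95, and Cox7a1 at 51.7% ± 5.24 and 46.4% ± 6.22. Changes in these shares were not tested. Cox8c was at 0 in 198 of 208 ST libraries and 124 of 128 YA libraries, and Cox7b2 at 0 in 187 of 284 LT libraries, with at most 8 and 13 counts in any library.

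Age and treatment were compared within each tissue with edgeR's quasi-likelihood test, with Benjamini-Hochberg adjustment over all genes of the tissue and comparison. Changes are log2 fold changes ± standard errors, and "rose" and "fell" are used for an adjusted p under 0.05, which is also what "called" means below. The p-values measure the spread between these animals. Of 74 combinations of comparison and tissue, 14 had at least 6 members called, and in each of these 14 all called members moved in the same direction. The largest numbers came from aged LT adipose tissue and from ST hippocampus. The LT comparisons of age and of exenatide share the aged controls, as do the ST comparisons of age, exenatide, rapamycin and knockdown, so that a low aged group lowers the age effect and raises the treatment effects at once.

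**Figure D2:**
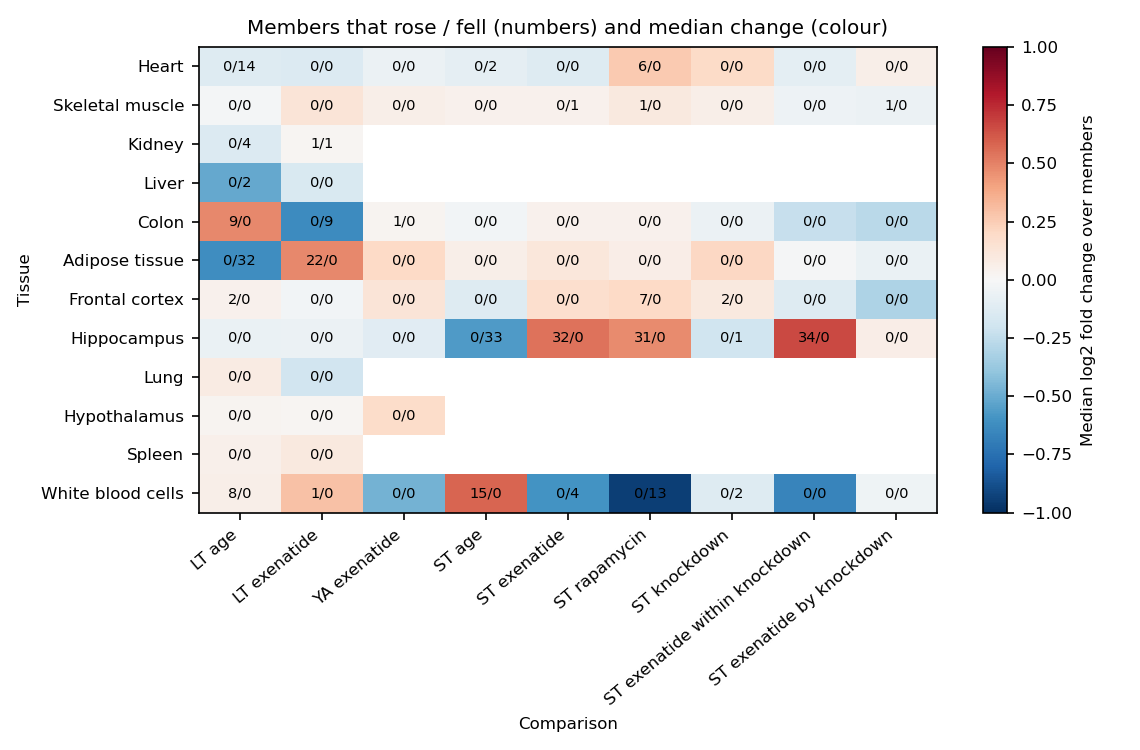
Grid of comparisons (columns) and tissues (rows), with the number of members that rose and the number that fell at an adjusted p under 0.05 in each cell and the median log2 fold change over members as colour (red above 0, blue below, white where the tissue was not sequenced in that cohort). The hippocampus row of the ST cohort holds 33 falls with age and 31 to 34 rises in 3 treatment comparisons, and LT adipose tissue holds 32 falls with age and 22 rises after exenatide.

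**Figure D3:**
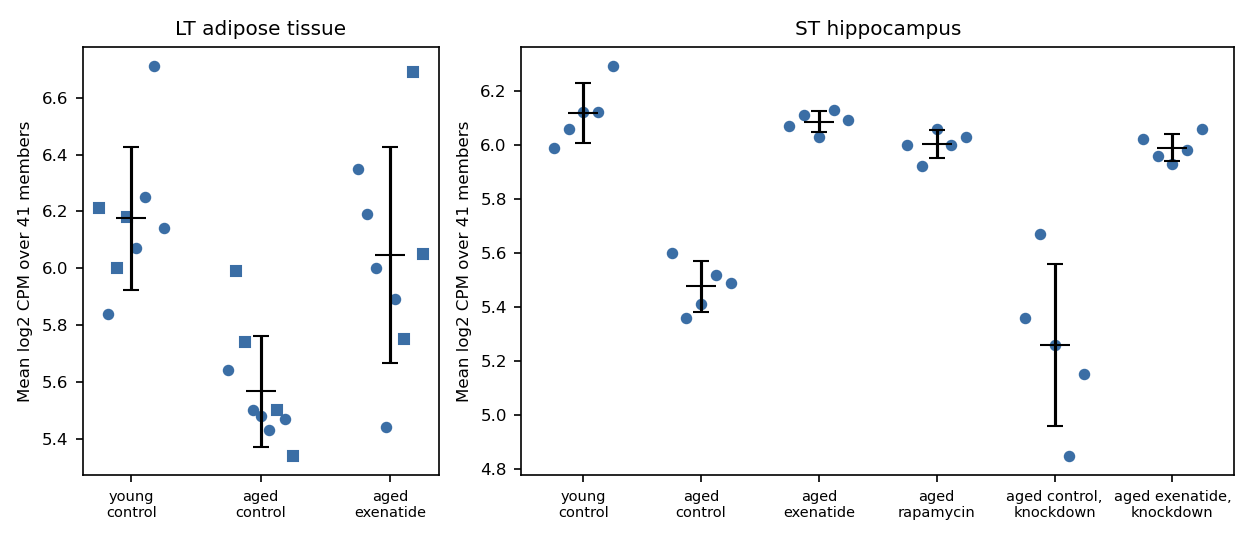
Mean log2 CPM over the 41 tested members in each library of LT adipose tissue (left) and ST hippocampus (right), by condition, with the mean ± SD of each group as bars. Points are libraries, and squares mark those of sequencing batch 3. In ST hippocampus all aged controls (5.36 to 5.60) lie under all young controls (5.99 to 6.29), and in LT adipose tissue the aged controls (5.34 to 5.99) lie mostly under the young ones (5.84 to 6.71).

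In LT adipose tissue, aged mice had less RNA of these subunits than young mice, and exenatide-treated aged mice had more than aged controls. With age 32 of 41 tested members fell and 0 rose, where 24.7% of all tested genes fell, and the median change was -0.62 for the members and 0 for all genes. All 8 complex III genes fell, with 11 of 16 of complex IV and 13 of 17 of complex V. After exenatide 22 of 41 rose and 0 fell, against 10.2% of all genes that rose, with a median of 0.48 against 0.01. By complex these were 6 of 8, 8 of 16 and 8 of 17. In bulk tissue, fewer cells of a type and less RNA per cell cannot be told apart.

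Atp5d, the δ subunit of the ATP synthase head, had the smallest p of the members with age. Its level was 136, 165 and 238 CPM (lowest, median and highest of 8) in young controls, 67.7, 84.1 and 135 in 9 aged controls, and 97.5, 164 and 245 in 8 exenatide-treated mice. The aged controls lay under all young controls, without overlap but with the nearest libraries almost touching, while the treated mice overlapped both. Atp5d fell by 0.95 ± 0.16 with age (adjusted p = 9.9e-05) and rose by 0.90 ± 0.16 after exenatide (adjusted p = 0.00123).

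Atp5g3, a gene for the c ring, stood at 167, 237 and 425 CPM in young and 77.9, 103 and 159 in aged controls, and at 105, 193 and 347 after exenatide. The young and aged ranges did not overlap. It fell by 1.14 ± 0.20 (adjusted p = 0.000151). Atp5g1, for the same protein, was not called (-0.19), and its share of the c subunit counts was 12.2% ± 3.7 in young, 19.4% ± 2.78 in aged and 14.6% ± 1.78 in treated mice.

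Atp5k, subunit e at the base of the ATP synthase, showed one of the widest changes. It was at 14.3, 25.3 and 34 CPM in young controls, at 2.42, 3.84 and 30.7 in aged controls and at 11.6, 23 and 46.5 after exenatide. The low aged values came from 1 sequencing batch: 2.42 to 3.84 CPM in batch 2 and 7.23 to 30.7 in batch 3, against 14.3 to 25.8 and 31 to 34 in the young controls of the same batches, so that the aged controls lay under the young ones within each batch. With batch in the model it fell by 1.78 ± 0.33 (adjusted p = 0.000194) and rose by 1.76 ± 0.32 after exenatide (adjusted p = 0.00146).

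The other large changes in adipose tissue were in small subunits of complexes III and IV. Uqcr11 and Uqcrq, accessory subunits of complex III, fell by 1.14 ± 0.28 and 1.11 ± 0.22 and rose after exenatide by 1.5 ± 0.28 and 1.07 ± 0.22. For Uqcr11 this meant 31.1, 40.2 and 50.2 CPM in young controls, 8.27, 14.9 and 45.1 in aged controls and 20.9, 48.2 and 104 after treatment. Most aged controls were under the young range and some reached into it. Cox6b1, which joins the monomers of complex IV, fell by 0.96 ± 0.17, and Cox5b rose after exenatide by 0.99 ± 0.20. Cox8b changed most of all with age (-1.99 ± 0.50, adjusted p = 0.00236) and after exenatide (1.87 ± 0.49, adjusted p = 0.00994), but from a low level of 2.01, 3.96 and 7.93 CPM in young and 0.543, 1 and 2.68 in aged controls, with 0.411, 2.64 and 20.8 after treatment. Its range in treated mice covered both other groups. The members not called with age were Cox7c, Atp5j2, Cox6b2, Atp5h, Cox6a2 (1.01), Cox7a2l (0.20), Atp5g1, Atp5mpl and Cox7a1.

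**Figure D4:**
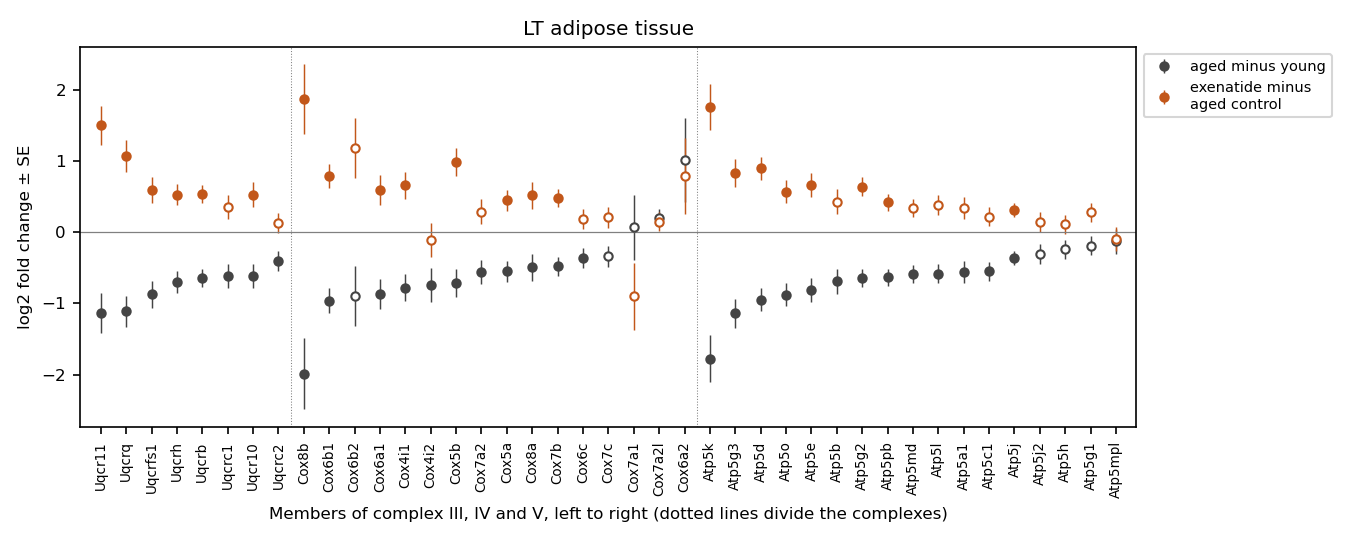
Log2 fold change ± standard error of each tested member in LT adipose tissue with age (aged minus young controls) and after exenatide (treated minus aged controls), with the members on the horizontal axis by complex. Filled points are called at an adjusted p under 0.05 and open points are not. Most age points lie below 0 and most exenatide points above 0, and both comparisons use the same aged controls.

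Cell type markers differed between the groups of LT adipose tissue as well, and only those of white adipocytes had the order of the members. The summed level of 5 white adipocyte markers had a median of 13200 CPM (8010 to 16500) in young controls, 6190 (1800 to 7570) in aged controls and 11400 (5560 to 21200) after exenatide. Macrophage markers had medians of 825, 2490 and 2510 CPM in the same order, and B cell markers of 15.1, 451 and 317. Brown adipocyte markers were low throughout, with medians of 35.9, 24.3 and 20.5 CPM. The part of these markers in the change of the members was not tested. Within batch 3 alone, 0 members were called for age and 0 for exenatide by edgeR, while the medians kept their sign (-0.49 and 0.48). Of all genes, 1.8% fell with age and 0% rose after exenatide there. Without the treated animal B36, 13 members rose after exenatide (7.31% of all genes rose). The young animal A57 had a member mean of 6.71, above the other young controls (5.84 to 6.25). Without A57, 29 members fell with age.

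In ST hippocampus the same genes were lower in aged than in young controls and higher after exenatide, after rapamycin and after exenatide within the knockdown than in the matching aged controls. With age 33 of 41 tested members fell and 0 rose (14.1% of all genes fell, and the medians were -0.57 for members and 0 for all genes). After exenatide 32 rose and 0 fell (14.2% of all genes rose), with a median of 0.54. After rapamycin 31 rose and 0 fell (14.1% of all genes rose), with a median of 0.47. In knockdown animals, exenatide against knockdown alone raised 34 and lowered 0 (16.1% of all genes rose), with a median of 0.66. All 41 members had a negative estimate with age and a positive one in each of the other comparisons.

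Atp5k had the smallest p with age. In aged controls it was at 22, 19, 17.4, 21.7 and 21.4 CPM, and in young controls at 55.2, 55.3, 55.3, 54.3 and 56.9. Exenatide-treated mice had 47.1, 55.3, 50.9, 52.9 and 48 CPM, and rapamycin-treated mice 51.5, 40.9, 57.8, 53.9 and 54.5. Every treated library lay above every aged control, and the treated and young groups overlapped. It fell by 1.45 ± 0.12 with age (adjusted p = 4.18e-10) and rose by 1.33 after exenatide (adjusted p = 1.71e-09) and by 1.35 after rapamycin (adjusted p = 6.79e-10). In the knockdown arms the controls had 17.8, 20.1, 15.1, 10.8 and 10.6 CPM and the exenatide-treated mice 42.5, 39.2, 34.6, 37.3 and 40.5, again without overlap (1.38, adjusted p = 9.41e-10). Atp5k was also the single member called for the knockdown itself in this tissue (-0.44 ± 0.12, adjusted p = 0.032), where the median over members was -0.20.

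In complex III the small subunits changed with age and the large ones were not called. Uqcrb, which helps to form the ubiquinone site, was at 26.9, 21.5, 22.2, 23.9 and 25.9 CPM in aged and 52.9, 48.5, 52.6, 49.5 and 62.6 in young controls. The groups were far apart, and it fell by 1.14 ± 0.10 (adjusted p = 1.61e-09). Uqcrq was at 46.5, 38.9, 37.6, 39.9 and 45.1 CPM in aged controls and at 81.6, 85.3, 77, 84.6 and 76.8 after exenatide, again without overlap, and rose by 0.96 ± 0.08 (adjusted p = 9.8e-10). Uqcr11 fell by 1.35 ± 0.16 with age (adjusted p = 6.88e-07). The core proteins Uqcrc1 (-0.08) and Uqcrc2 (-0.07) and the Rieske iron-sulphur protein Uqcrfs1 (-0.08) were not called with age, nor after exenatide or rapamycin. In the knockdown arms Uqcrc1 (0.16 ± 0.05, adjusted p = 0.0151) and Uqcrfs1 (0.19 ± 0.07, adjusted p = 0.0494) did rise.

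In complex IV, 14 of 16 tested genes fell with age and 13 rose in each of the 3 treatment comparisons. Cox5b, a zinc-binding subunit, fell by 1.27 ± 0.12 (adjusted p = 7.42e-09). In the knockdown arms it was at 48.9, 57.5, 44.1, 32.4 and 32.6 CPM without and 124, 112, 103, 132 and 147 with exenatide. The groups lay far apart, with a rise of 1.52 (adjusted p = 4.33e-10). Cox8a, the general form of the smallest subunit, had a mean of 154 ± 26.7 CPM (SD, n = 5) in aged controls and 331 ± 12.8 in young controls, and fell by 1.10 ± 0.16. It rose by 1.12 after exenatide and by 1.41 in the knockdown arms. Cox6a2 rose by 1.06 ± 0.20, 0.96 and 1.38 after exenatide, rapamycin and exenatide with knockdown, at a low level of 1.04 to 2.07 CPM in aged controls and 2.73 to 3.58 after exenatide. Cox8b and Cox7a1 fell with age by 2.42 and 1.82 but were near the limit of detection. Young controls had 0.251, 0.459, 0.961, 1.86 and 5.08 CPM of Cox8b, and the aged controls 0.151 to 0.522, so that these groups overlapped.

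In complex V, 14 of 17 tested genes fell with age, and 14, 13 and 14 rose after exenatide, rapamycin and exenatide within the knockdown. Atp5a1, the α subunit, was at 661 to 720 CPM in aged and 697 to 752 in young controls, overlapping groups, and was not called (-0.10). Atp5b, the catalytic β subunit, fell by 0.23 ± 0.05, and the central stalk protein Atp5c1 (-0.08) and the peripheral stalk protein Atp5pb (-0.15) were not called. Atp5mpl, a small proteolipid, stood at 28.8, 26.8, 36.6, 29.9 and 26.5 CPM in aged controls and at 59.1, 50.3, 61.7, 64.6 and 57.9 after rapamycin, without overlap. It fell by 1.07 ± 0.10 with age (adjusted p = 5.16e-09) and rose by 0.98 after rapamycin (adjusted p = 1.57e-08). Atp5e, the ε subunit of the head, rose by 0.97 after rapamycin and 1.07 after exenatide in the knockdown arms.

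**Figure D5:**
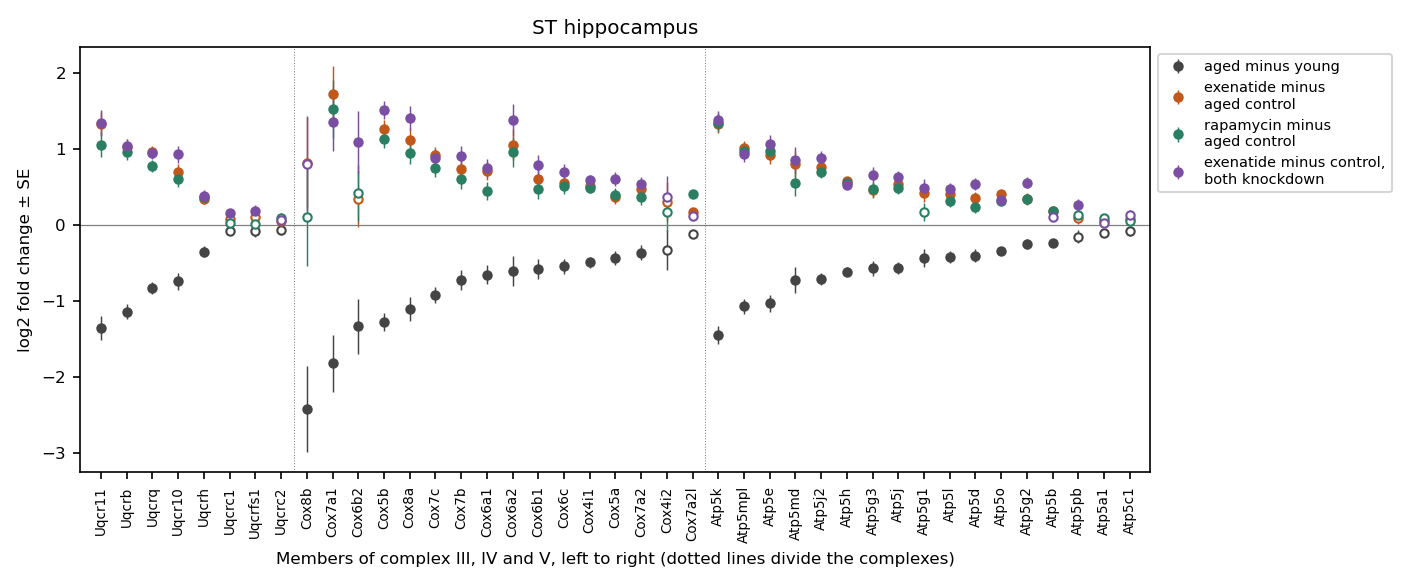
Log2 fold change ± standard error of each tested member in ST hippocampus with age, after exenatide, after rapamycin and after exenatide within the knockdown, with the members on the horizontal axis by complex. Filled points are called at an adjusted p under 0.05 and open points are not. Age points lie below 0 for all 41 members, and the small subunits Atp5k, Uqcr11, Cox5b and Uqcrb lie farther from 0 than the large proteins Atp5a1, Uqcrc1 and Uqcrc2.

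The comparison of age and that of exenatide within the knockdown use no library in common. Over the 41 members their changes had opposite signs in 41 of 41, and Pearson's r was -0.78 across genes, which are not independent replicates and share library preparation and length. The exenatide effects with and without knockdown were set against each other directly: 0 of 41 members were called by edgeR, 0 had an unadjusted p under 0.05 and DESeq2 called 0, with a median difference of 0.07. As a mean over the tested members, aged controls stood at 5.48 ± 0.09 log2 CPM (SD, n = 5), knockdown controls at 5.26 ± 0.30, young controls at 6.12 ± 0.11, and the exenatide, rapamycin and exenatide with knockdown groups at 6.09 ± 0.04, 6.0 ± 0.05 and 5.99 ± 0.05. The knockdown controls spread most (4.85 to 5.67), and none of them reached any young or treated library.

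Sequencing depth differed between these groups, with 22.7 to 26.3 M counts in aged controls, 24.3 to 48.4 M in young controls and 30.1 to 56.2 M after exenatide. No exenatide library was as shallow as the aged controls, and the part of depth in that comparison was not tested. Libraries of young and rapamycin-treated mice with 24.3, 26 and 23.7 M counts had member means of 5.99, 6.29 and 6.0, and the highest aged control had 5.60. Neuron markers had median sums of 5320 CPM in aged and 5710 in young controls, 5330 after exenatide and 5550 after rapamycin, and astrocyte markers of 5560, 4670, 5270 and 5190. The part of these markers in the change of the members was not tested.

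Transcript length moved with the size of the change in hippocampus. The members are short, with a median of 635 bases against 2450 for all tested genes, at 51.5% and 50.2% GC. With age, the 9 members of up to 500 bases had a median change of -1.07 (all 297 genes of that length -0.15), the 22 members above that and up to 1000 bases -0.56 (1383 genes, -0.22), and the 8 members above that and up to 2000 bases -0.09 (3798 genes, -0.10). After exenatide the same classes gave 0.96, 0.53 and 0.10 for members and 0.30, 0.31 and 0.13 for all genes. Pearson's r between change and log2 length over 40 members was 0.668 with age and -0.677 after exenatide, given as descriptions. With each library's trend on length and GC content removed, 25 of 40 members fell with age (median -0.35), 19 rose and 1 fell after exenatide (0.18), 19 rose after rapamycin (0.20) and 25 rose after exenatide within the knockdown (0.36). The shares of all genes called in these directions were then 12.3%, 8.16%, 12% and 11.9%. Ribosomal protein genes, also short and examined after these values were seen, moved the same way: of 79, 56 fell and 2 rose with age, 66 rose and 2 fell after exenatide, 75 rose and 1 fell after rapamycin, and 50 rose and 0 fell in the knockdown arms. In LT adipose tissue 20 of the 79 rose and 4 fell with age (median 0.17), and 22 rose and 0 fell after exenatide (median 0.25). With age, genes of up to 500 bases had a median of 1.24 there and the members of that length -0.81.

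Hippocampus of the LT cohort gave no such calls. With age 0 of 41 members were called by edgeR, 4 had an unadjusted p under 0.05 and DESeq2 called 0 (median -0.07), and after exenatide these numbers were 0, 5 and 0 (-0.06). Of all 17601 genes tested there, 57 rose and 14 fell with age, and 0 were called after exenatide. After exenatide in YA hippocampus the numbers were 0, 0 and 0 (-0.11), with 0 called of 16802 genes. Both YA groups held a library far from the others by the mean over members. These were control A87 (5.66, the others 6.77 to 7.53) and exenatide-treated A88 (4.25, the others 6.69 to 7.51). A fit without these libraries was not run, so the absence of calls there is weak evidence. Differences between cohorts were not tested.

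Other genes of the respiratory chain were counted beside the members. In LT adipose tissue 34 of 39 complex I genes fell and 0 rose with age (median -0.73) and 23 rose and 0 fell after exenatide. In ST hippocampus 33 of 39 fell with age, and 35, 32 and 35 rose after exenatide, rapamycin and exenatide within the knockdown. All 4 genes of complex II, succinate dehydrogenase, fell with age in adipose tissue (Sdhc -0.56, Sdha -0.59) and 3 of 4 in hippocampus (Sdha -0.28). Of 23 and 24 tested assembly factors of complex IV, 11 fell and 1 rose in adipose tissue (Cox19 -1.06) and 12 fell and 2 rose in hippocampus (Pet100 -1.46, Cox17 -0.92). Cytochrome c (Cycs) fell by 0.71 and 0.70 in the 2 tissues, and Ndufa4 by 0.98 and 0.45, while Cyc1 fell in adipose tissue (-0.89) and was not called in hippocampus (-0.16). Of the regulators of mitochondrial biogenesis, 2 rose and 3 fell of 11 in adipose tissue and 2 rose and 2 fell of 12 in hippocampus, with the receptor Esrra at -0.48 in both (adjusted p = 0.00851 and 0.0013).

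Atpif1, which inhibits the ATP synthase when it runs backwards, went against the subunits with age in LT adipose tissue and with them in ST hippocampus. After exenatide in LT adipose tissue Atpif1 was not called (-0.01 ± 0.17, adjusted p = 0.965). It rose with age in LT adipose tissue (0.43 ± 0.17, adjusted p = 0.0417) and in LT white blood cells (1.5 ± 0.36, adjusted p = 0.00903) and fell in LT heart (-0.25 ± 0.09, adjusted p = 0.0433). In ST hippocampus it was at 45.9 to 52.5 CPM in aged controls and 72.7 to 83.7 in young controls, without overlap, and fell by 0.71 ± 0.09 (adjusted p = 3.94e-07). It rose by 0.74 after exenatide (adjusted p = 1.7e-07), 0.60 after rapamycin (adjusted p = 4.29e-06) and 0.91 after exenatide within the knockdown (adjusted p = 4.92e-09). It was called in no other combination of comparison and tissue.

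Circulating white blood cells of the ST cohort carried more of these transcripts in aged than in young controls, and less after rapamycin. With age 15 of 38 tested members rose and 0 fell (12.6% of all genes rose), with a median of 0.58. After rapamycin 13 fell and 0 rose (6.32% of all genes fell), with a median of -0.94. Scaled by library totals, 0 members fell after rapamycin (median -0.77, with 0.0461% of all genes), and 0 with each library's trend on length and GC content removed (median -0.52, 1.37%). With that trend removed 3 rose with age (median 0.31, 5.24%). Atp5d was at 113, 124, 72.9, 75.3 and 59.4 CPM in aged controls, at 39.2, 39.4, 57.7, 43.9 and 38.2 in young controls, and at 56.6, 44, 46.7 and 47.2 after rapamycin. All aged controls lay above all of the others, the lowest of them narrowly. Atp5d rose by 1.03 ± 0.20 with age (adjusted p = 0.0014) and fell by 0.87 ± 0.21 after rapamycin (adjusted p = 0.012).

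Uqcrc1 stood at 109, 109, 73.7, 73 and 71.7 CPM in aged controls, at 55.4, 49.4, 52.7, 49.6 and 48.6 in young controls and at 62.7, 49.8, 51.1 and 53 after rapamycin. These groups did not overlap with the aged controls either. It rose by 0.77 ± 0.15 (adjusted p = 0.0015) and fell by 0.69 ± 0.16 (adjusted p = 0.01). The largest changes with age were those of Atp5e (1.54 ± 0.40), Uqcr11 (1.31), Uqcrq (1.19), Cox5b (1.14), Atp5j2 (1.08) and Cox4i1 (1.06), and after rapamycin those of Atp5e (-1.76 ± 0.44), Cox5a (-1.34), Atp5j2 (-1.20), Uqcrb (-1.19), Cox7c (-1.13) and Atp5g1 (-0.97). After exenatide 4 of 38 members fell: Atp5d (-0.95), Uqcrc1 (-0.66), Cox7a2l (-0.83) and Atp5g3 (-0.83). This comparison is among the 60 pooled below, where 3.46% of all gene tests were called in either direction. The share of all genes that fell in this comparison alone is not given here. The 4 falls can therefore not be read as more than that of all genes.

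Blood cell markers differed between these libraries. Neutrophil markers summed to a median of 2490 CPM (1340 to 9930) in aged controls, 788 (336 to 2450) in young controls and 1670 (1610 to 2240) after rapamycin. Erythroid markers summed to medians of 175000, 209000 and 153000 CPM, and their part in the result was not tested. Several libraries here had extreme scaling factors: without the 4 most extreme (1 young control, 2 knockdown controls and 1 rapamycin library) 30 members rose with age (19.4% of all genes) and 20 fell after rapamycin (9.07% of all genes). Left out singly, young A42 or A43 gave 8 with age (8.23% and 9.9% of all genes rose). Aged E13 or E23 gave 9 (10.2% and 6.14%). After rapamycin, E6 left out gave 2 (1.09% of all genes fell) and aged E23 3 (1.75%). E28 or E36 left out gave 4 (2.51% and 2.12%) and aged E13 5 (2.72%). The median over members in these rapamycin fits was between -0.98 and -0.76. In LT white blood cells 8 of 38 members rose with age and 0 fell (15.7% of all genes rose), at a median of 0.06 for members and -0.01 for all genes. They were led by Atp5l (0.68 ± 0.15, adjusted p = 0.00645), Cox5a (0.95 ± 0.22, adjusted p = 0.00835) and Atp5md (0.73 ± 0.17, adjusted p = 0.00863). Atp5l was at 38.4, 47.9, 67.9, 52.7 and 42.4 CPM in aged and 30.7, 39.4, 31.4, 27.4 and 26.6 in young controls, which overlapped by 1 library on each side. Without young A57 or A58 or aged B34 4 members rose (10.8%, 10.5% and 10.3% of all genes), and without aged B27 5 (12.7%). Scaled by library totals, 2 rose and 2 fell at a median of -0.17 (10.4% of all genes rose), and with the trend on length and GC content removed 6 rose and 3 fell at a median of -0.07 (13%).

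In LT colon the members were higher in aged controls than in young controls or treated mice. With age 9 of 39 rose and 0 fell (6.01% of all genes rose, median 0.48), and after exenatide 9 fell and 0 rose (6.98% of all genes fell, median -0.63). Uqcr11 was at 19.5, 23.7 and 38.5 CPM in 6 young controls, 37.4, 57.9 and 216 in 9 aged controls and 24.9, 30.1 and 37.7 in 8 treated mice. The aged range began at the upper end of the other groups and reached far beyond it. Uqcr11 rose by 1.52 ± 0.32 with age (adjusted p = 0.00529) and fell by 1.36 ± 0.29 after exenatide (adjusted p = 0.00592). Atp5k rose by 2.35 ± 0.55 and Uqcrq by 1.22 ± 0.31 with age, and after exenatide Atp5d fell by 0.79 ± 0.18 and Cox5b by 1.04 ± 0.24. In batch 2 Atp5k was at 7.55 to 13.4 CPM in young and 38.3 to 265 in aged controls. In batch 3 the young controls had 16 and 38.9 CPM and the aged controls 35.4 to 50.3, which overlapped. Aged controls B24 and B27 had member means of 8.79 and 7.93, against 6.93 to 7.32 in the others. Without them 8 members rose and 1 fell with age at a median of 0.01, and 7 fell after exenatide at a median of -0.11. Within batch 3 alone 0 members rose and 1 fell with age, at a median of -0.27 (0.896% of all genes rose), and 0 fell after exenatide, at a median of 0.01 (0% of all genes fell).

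In LT heart 14 of 41 members fell with age and 0 rose (9.87% of all genes fell), with a median of -0.13. Cox7c, a small membrane subunit of complex IV, was at 416, 576 and 838 CPM in young and 305, 381 and 627 in aged controls, and Atp5j2, subunit f of the ATP synthase, at 510, 703 and 911 and at 335, 453 and 727. Both pairs of groups overlapped, and libraries of batch 3 were higher in each: over all groups their member means were 8.78 to 9.43 against 8.12 to 8.91 in batch 2. With batch in the model both genes fell by 0.52 (± 0.08 and ± 0.09, adjusted p = 0.000112 and 0.0004). Atp5mpl (-0.46), Cox6c (-0.44), Cox7a1 (-0.44) and Atp5h (-0.43) followed. Without a batch term 2 members fell (3.23% of all genes fell). Within batch 3 alone 0 fell, at a median of -0.33, where 0.0653% of all genes fell.

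Some members rose after rapamycin in ST frontal cortex and heart. In frontal cortex 7 of 39 rose and 0 fell (7.81% of all genes rose, median 0.20). Cox7a2l, a factor that links complexes III and IV into supercomplexes, was at 84.6, 85.9, 95.9, 99.8 and 99 CPM in aged controls and 123, 132, 121, 120 and 142 after rapamycin. The groups did not overlap, and it rose by 0.45 ± 0.06 (adjusted p = 2.44e-05), ahead of Uqcrc1 (0.22, adjusted p = 0.0151) and Atp5a1 (0.17, adjusted p = 0.0227). Cox7a2l also rose after rapamycin in hippocampus (0.41 ± 0.05, adjusted p = 8.53e-07), from 97.8 to 108 CPM in aged controls to 127 to 142, and in skeletal muscle (1.05 ± 0.17, adjusted p = 0.000599), where it was the single member called. The aged control muscles included E13, with a member mean of 4.97 against 7.3 to 7.75 in the others, and no fit left it out. With age Cox7a2l was not called in hippocampus (-0.11), so that rapamycin-treated mice, at 127 to 142 CPM, stood above the young controls at 107 to 113. In heart 6 of 41 rose and 0 fell (13.3% of all genes rose, median 0.26), close to the share of all genes. Atp5e was at 293, 287, 199, 276 and 277 CPM in aged controls and 426, 378, 1070, 318 and 467 after rapamycin, without overlap, and rose by 1.0 ± 0.22 (adjusted p = 0.00345). Cox4i1 (0.47 ± 0.14) and Atp5b (0.28 ± 0.08) rose with it. These 2 results depended on single libraries, as leaving out 1 library gave 2 to 12 members in frontal cortex and 1 to 12 in heart. In frontal cortex, aged E23 left out gave 2 (4.56% of all genes rose) and aged E32 12 (8.12%). E13, E22, E28, E30 or E36 left out gave 3 (4.12% to 9.28%) and E29 gave 4 (7%). In heart, aged E29 left out gave 1 (9.46% of all genes rose) and E36 12 (15.9%). E22, E23, E28 or E6 left out gave 2 (6.8% to 11.8%) and E13 gave 3 (9.18%).

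In the other 60 combinations of comparison and tissue 26 of 2395 member tests were called (1.09%, with 9 rises and 17 falls), against 3.46% of all gene tests there. In 46 of these combinations 0 members were called by edgeR; there 205 of 1843 tests had an unadjusted p under 0.05 and DESeq2 called 21. Uqcrc1 recurred among the calls. It fell with age in ST heart (-0.64 ± 0.14, adjusted p = 0.00446), where aged controls had 1050, 908, 830, 1010 and 1370 CPM and young controls 1880, 1430, 1470, 1780 and 1480, without overlap. In ST skeletal muscle it fell after exenatide (-0.53 ± 0.15, adjusted p = 0.0129) but not within the knockdown (0.09 ± 0.15), and the difference between these effects was 0.62 ± 0.21 (adjusted p = 0.0353). The aged control muscles used there include the outlying E13 (member mean 4.97, the others 7.3 to 7.75), and no fit left it out. Uqcrc1 also fell with age in LT kidney (-0.31 ± 0.07, adjusted p = 0.00864), together with Cox6a1 (-0.36 ± 0.08, adjusted p = 0.00304), Cox5a (-0.23) and Uqcrfs1 (-0.25). In LT liver Cox5a (-0.59) and Atp5g1 (-0.58) fell with age, and in LT frontal cortex Atp5h (0.27) and Cox7c (0.24) rose. Exenatide in LT raised Cox6b2 (0.85) and lowered Uqcrc2 (-0.24) in kidney and raised Atp5d (0.57) in white blood cells. In the YA cohort Cox7a1 in colon (0.48 ± 0.13, adjusted p = 0.045) was the single member called by edgeR in any tissue. In YA white blood cells 18 of 37 members had an unadjusted p under 0.05 (median -0.47) and DESeq2 called 6, and in YA frontal cortex 22 of 40 did (median 0.13) and DESeq2 called 0. The knockdown itself lowered Uqcrc1 (-0.57) and Atp5d (-0.62) in white blood cells and raised Cox6a2 (0.75) and Uqcrc1 (0.21) in frontal cortex. Several subunit genes have processed copies in the genome, and the handling of reads shared with them is not known here. Values of single small subunits carry that uncertainty.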

How the data were processed

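Gene counts of 620 poly(A) RNA libraries were used. Per the labels' protocols, RNA was extracted with TRIzol or the RNAqueous kit and libraries were made with NEBNext Ultra II, an unstranded kit. FastQC 0.11.9 and the build GRCm39 are named in the submitters' processing notes. The aligner, counting tool and annotation are not given in the sources used here. For LT the authors deposited whole-number counts, and for ST and YA estimated counts (7.37% and 7.21% of non-zero values not whole, as deposited), which were rounded before testing. Conditions, animals and batches came from the labels.

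Each tissue and cohort was fitted over all its conditions with edgeR 4.0.16 in R 4.3.3 (TMM scaling, filterByExpr, robust quasi-likelihood fits and F tests, batch as covariate in LT tissues with 2 batches), and p-values were adjusted over all genes by Benjamini-Hochberg. CPM values are TMM-scaled, and log2 CPM used a prior count of 2. The mean over members used all members for tissue levels and the tested members for conditions. Tested on simulated data, the fit recovered 72.7% of 2-fold and 89% of 4-fold changes in LT adipose tissue for age (16687 genes), and 86.9% and 99% in ST hippocampus for exenatide (18415 genes). Of the genes called in these simulations, 3.59% and 7.04% were unchanged ones. The simulated counts held no batch effect, and only a small random set of genes was changed, each drawn independently. Rates with batch effects or with many genes moving together were not measured.

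Members and lists were chosen with earlier results of these data known. Comparisons with 10 or more members called are described with up to 6 called members of the largest change (average log2 CPM of at least 1) and per-library values of up to 2 with the smallest adjusted p, and those with fewer calls with up to 3 of the smallest adjusted p. Other members named, the ribosomal protein list, the length classes and the limit of 6 calls for a description were chosen after values were seen. Alternatives were DESeq2's size factors, library totals, no filter, DESeq2 1.42.0, only the conditions compared, no batch term, single batches and each animal left out, and, chosen after seeing the data, removal of a length and GC trend (splines with 4 degrees of freedom), 4 blood libraries left out and 2 colon libraries left out.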

Additional observations from a re-analysis of the deposited data

Results flagged for a closer look

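Of 94 groups of 4 to 10 libraries examined for the mean log2 CPM over members, 12 held a library far from the others, where chance gives about 1 in 20 groups. In the LT cohort these were young adipose A57 (6.71, the others 5.84 to 6.25) and exenatide-treated skeletal muscle B13 (8.49, the others 7.51 to 7.77). In YA they were control adipose A81 (2.7, the others 5.72 to 6.07), exenatide heart A79 (7.78, 8.34 to 8.76), control heart A41 (9.01, 8.26 to 8.42), exenatide hippocampus A88 (4.25, 6.69 to 7.51), control hippocampus A87 (5.66, 6.77 to 7.53) and exenatide skeletal muscle A34 (6.94, 7.23 to 7.47). In ST they were aged control adipose E29 (5.64, 6.23 to 6.45), exenatide adipose E19 (4.41, 6.12 to 6.78), exenatide with knockdown colon E15 (4.35, 6.41 to 6.76) and aged control skeletal muscle E13 (4.97, 7.3 to 7.75).

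Of 57 groups examined for single members with values given above, 4 held such a library: Atp5d in aged LT adipose tissue of B16 (135 CPM, the others 67.7 to 98.6), Atp5g3 in young LT adipose tissue of A57 (425 CPM, 167 to 271), Uqcrc1 in ST white blood cells after exenatide of E7 (74.5 CPM, 48 to 49.5) and Atp5mpl in young ST hippocampus of A47 (68.5 CPM, 59.6 to 61.8). In ST skeletal muscle the exenatide effect on Uqcrc1 differed between animals with and without the knockdown, by 0.62 on the log2 scale. The aged controls of that comparison include the outlying muscle library E13.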

How the results depend on the processing

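A percentage after a count below is the share of all genes called in that direction. The count of LT adipose members that fell with age stayed within 1.5 times of 32 except within batch 3 alone (0, 1.8%). That after exenatide (22, 10.2%) did so except with the length and GC trend removed (7, 2.54%) and in batch 3 alone (0, 0%). The hippocampus counts kept to that range except with the trend removed after exenatide (19, 8.16%) and rapamycin (19, 12%). For LT white blood cells library totals gave 2 (10.4%), with 2 falls. For age in LT colon, trend removal gave 5 (4.51%) and only the conditions compared 2 (1.49%). Batch 3 alone gave 0 (0.896%) and batches 1 and 2 alone 1 (1.16%). For exenatide there DESeq2 gave 14 (8.77%), trend removal 1 (0.67%) and batch 3 alone 0 (0%). In LT heart, no batch term gave 2 (3.23%) and batch 3 alone 0 (0.0653%). For age in ST white blood cells, no filter gave 9 (5.46%), trend removal 3 (5.24%) and the 4 libraries left out 30 (19.4%). For rapamycin there, library totals gave 0 (0.0461%), no filter 6 (1.84%) and trend removal 0 (1.37%). Only the conditions compared gave 23 (5%) and the 4 libraries left out 20 (9.07%). For rapamycin in frontal cortex, no filter gave 3 (3.83%) and only the conditions compared 18 (13.5%). In heart library totals gave 2 (9.65%), no filter 2 (5.7%), trend removal 10 (11.1%) and only the conditions compared 1 (5.2%). For the other 60 combinations (26), no filter gave 11, DESeq2 73, trend removal 78, only the conditions compared 57, no batch term 5 and batches 1 and 2 alone 42. Smaller batches hold fewer libraries; otherwise the cause was not tested.

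Leaving out 1 animal gave 29 to 35 (LT adipose, age), 13 to 25 (exenatide), 4 to 10 (LT white blood cells), 6 to 9 (LT colon, age), 6 to 11 (exenatide), 11 to 16 (LT heart), 8 to 17 (ST white blood cells, age), 2 to 15 (rapamycin), 2 to 12 (frontal cortex) and 1 to 12 (ST heart). In hippocampus it gave 32 to 33 with age, 31 to 32 after exenatide, 30 to 31 after rapamycin and 31 to 35 after exenatide within the knockdown. The share of all genes called changed between such fits as well. For rapamycin in ST white blood cells 6.32% of all genes fell in the main fit and 1.09% with E6 left out. For the 99 named member results, 709 of 865 alternative values kept direction and side of the threshold, 156 lost the call and 0 reversed. No paired analysis was possible because each animal belongs to 1 condition and the labels number animals, not pairs. Low counts limit Cox6a2, Cox7a1 and Cox8b outside heart and muscle.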
